A study of Mus musculus with 125 samples.

Results

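The forkhead genes encode transcription factors that share a winged-helix DNA-binding domain. They were taken as every gene whose symbol is Fox followed by a letter from a to s and a digit, which gave 45 of the 27998 genes in the single-cell gene table. Of these, 44 are protein-coding and 1, Foxo6os, is a long non-coding RNA. Their RNA was read in brain endothelial cells at 5 ages, and the chromatin within 50 kb of each gene was read in endothelial and input nuclei of 7 tissues. Of 514158 regions that held a peak in at least 1 library, 1723 overlapped a forkhead gene or lay within 50 kb of one, and 77 of them were near 2 or more members. The rule reads symbols only.

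All samples came from mice. For the chromatin assay (ATAC-seq, in which a transposase cuts open DNA), 66 libraries of nuclei were made, 37 labelled endothelial and 29 labelled input. The E12 group covers brain, heart and trunk, and the P6 and adult groups cover brain, retina, heart, kidney, liver and lung, with 2 to 4 endothelial and 1 to 3 input libraries per tissue and age. Every animal of this assay, input included, received tamoxifen at 0.015 mg/kg: pregnant dams at E10.5 for embryos collected at E12.5, pups on days 1 and 3 with tissue taken at P7 although the label reads P6, and adults (2 months) 7 days before collection. GFP was checked in the vessels of each sample, but the strain, the reporter and the promoter that drives it are not given in the sources used here, nor is pooling of animals, so p-values measure the spread between libraries, which may be technical. The single-cell RNA samples were 1 library each of cells held on anti-CD31 beads from whole brain at E9.5, E12.5 and E16.5 and from cortex at P8 and in the adult (2 months). Embryonic brain was dissociated with collagenase and postnatal cortex with a tissue kit. Age therefore cannot be told apart from region and dissociation between any embryonic and any postnatal library. With 1 library per age there is no test across ages, and intervals cover counting error only.

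Most forkhead proteins bind DNA as monomers, and several can bind sites wrapped in nucleosomes. In endothelium, FOXO1 is held out of the nucleus by phosphorylation downstream of the insulin and growth factor receptors, and in the nucleus it restrains growth and the cell cycle. FOXC1 and FOXC2 act in arterial, lymphatic and mural cell development, FOXF1 is best known from lung and visceral vessels, FOXF2 and FOXQ1 are enriched in brain endothelium, and FOXM1 drives genes of mitosis.

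Sequences are shown for the promoters of the 4 members around which the chromatin results turn and for which RefSeq gave one: Foxf2, Foxc1 and Foxo1, and Foxl2, whose surroundings were open in brain endothelium. Each run is the 250 bases before the gene's start (RefSeq, GRCm38.p6, the mm10 assembly; plus strand), at chr13:31625566-31625815 for Foxf2, chr13:31806396-31806645 for Foxc1, chr3:52268087-52268336 for Foxo1 and chr9:98955357-98955606 for Foxl2. Capitals mark matches to the GC box GGGCGG and the CCAAT box CCAAT on either strand.
Foxf2: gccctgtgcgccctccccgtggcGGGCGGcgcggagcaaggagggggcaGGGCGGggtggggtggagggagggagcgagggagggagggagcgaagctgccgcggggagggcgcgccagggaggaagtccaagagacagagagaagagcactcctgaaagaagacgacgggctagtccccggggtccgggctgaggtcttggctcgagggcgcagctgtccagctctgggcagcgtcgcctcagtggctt
Foxc1: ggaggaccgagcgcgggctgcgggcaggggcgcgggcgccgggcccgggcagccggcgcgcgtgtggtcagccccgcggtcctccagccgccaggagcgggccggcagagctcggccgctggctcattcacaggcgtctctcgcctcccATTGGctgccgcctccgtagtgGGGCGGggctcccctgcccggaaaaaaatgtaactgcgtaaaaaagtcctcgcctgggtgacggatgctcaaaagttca
Foxo1: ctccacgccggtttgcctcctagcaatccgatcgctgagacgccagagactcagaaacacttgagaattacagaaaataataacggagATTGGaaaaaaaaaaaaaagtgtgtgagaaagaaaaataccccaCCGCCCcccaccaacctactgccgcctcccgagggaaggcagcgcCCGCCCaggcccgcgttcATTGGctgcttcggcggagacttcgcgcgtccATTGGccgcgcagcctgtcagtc
Foxl2: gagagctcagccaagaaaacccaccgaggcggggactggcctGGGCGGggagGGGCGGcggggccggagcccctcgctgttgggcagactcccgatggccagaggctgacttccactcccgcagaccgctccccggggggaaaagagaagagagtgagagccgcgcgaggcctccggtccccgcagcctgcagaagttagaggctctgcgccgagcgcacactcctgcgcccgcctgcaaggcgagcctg
Foxf2 and Foxl2 had 2 GC boxes each and no CCAAT box, Foxc1 had 1 of each, and Foxo1 had 2 GC boxes and 3 CCAAT boxes. The GC box was in the promoters of 20 of the 29 members with an entry, against 32.9% of 27025 promoters, and the CCAAT box in 13 of 29, against 34.5%. The median GC content was 62% over the 29 members and 52% over all promoters. A core forkhead site, GTAAACA on either strand, was in 1 of the 29 (Foxa1) and in 3.09% of all promoters. The TCF/LEF motif CTTTGNT was in 3 of 29 (Foxa1, Foxp1, Foxp3) and in 16.1% of promoters, the ETS motif CCGGAAG in 0 of 29 and 7.05%, and TATAAA in 2 of 29 (Foxa3, Foxp3) and 13%. Matches are descriptions of these letters. No motif searched contains another, and Foxq1 has no entry.

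A barcode was taken as endothelial when it had at least 200 genes, at most 10% mitochondrial UMIs and at least 3 of the 6 endothelial genes Cdh5, Pecam1, Egfl7, Esam, Tie1 and Kdr. That left 5644, 6347, 3786, 4778 and 3154 barcodes from the youngest to the oldest library, with median depths of 4896 to 10469 UMIs. Levels are counts per 1000000 UMIs (CPM) summed over these barcodes. They count transcript 3′ ends and so carry no gene length. Genes of other cell types were present in the same barcodes: the 8 mural (pericyte and smooth muscle) genes summed to 10.6 CPM at E9.5 and to 88, 237, 825 and 1520 at the later ages in order, and all 8 were detected at the last 4 ages. The erythroid genes summed to 236 CPM at E9.5 and to 4000, 5300, 4980 and 3300 at the later ages, the neural genes to 177 to 649 and the epithelial genes to 1.59 to 396, highest at P8. The 128 erythroid barcodes at E12.5, with no endothelial gene, held 0 Foxq1 and 3 Foxf2 UMIs (3.18 CPM, 0.657 to 9.3). Leaving out each barcode with 2 or more genes of any other type's list kept 53.1% to 81.4% of barcodes. This moved 40 of the 100 levels of the 20 members that reached 10 CPM out of their counting interval. Levels that moved by over 1.5 times, all of Foxc2, Foxd1, Foxs1, Foxp2 or Foxp4, are given beside those genes. Among the smaller moves, Foxq1 was at 163, 367, 402 and 626 CPM without these barcodes at the 4 later ages, Foxf2 at 118 at E12.5 and 109 in the adult, and Foxc1 at 40.2 at E12.5 and 62.6 at E16.5. Of the same 100 levels, 36 moved with a mean over barcodes in place of the sum. A mitochondrial limit of 5% moved 27, and the other gates tried moved 0 to 10. Over all these settings Foxf2 spanned 128 to 147 CPM at P8, wider than its counting interval. Libraries shared 0 to 50 cell barcodes per pair, most between E12.5 and E16.5 (35 of them endothelial in both). The E16.5 matrix was read in the gene order of the other libraries, in which its levels correlated with E12.5 at r = 0.978 across genes, against 0.206 with the order moved by 1 gene; genes are not independent replicates. The name of that deposited matrix carries another embryonic age than the labels of its sample, which were followed here, so each E16.5 value rests on the label.

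Of the 45 members, 20 reached 10 CPM at 1 or more ages, 10 had at most 3 UMIs in every library, and 6 of those (Foxr2, Foxn4, Foxo6os, Foxn1, Foxi3 and Foxb2) had none. All members together summed to 280 CPM at E9.5 and to 711, 1100, 1230 and 1700 at the 4 later ages. Foxp1 had the highest level at E9.5 and Foxq1 at each later age. At least 10% of endothelial barcodes held a UMI for 17 members in 1 or more libraries, and for 6 members once each barcode was thinned to 2000 UMIs.

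**Figure D1:**
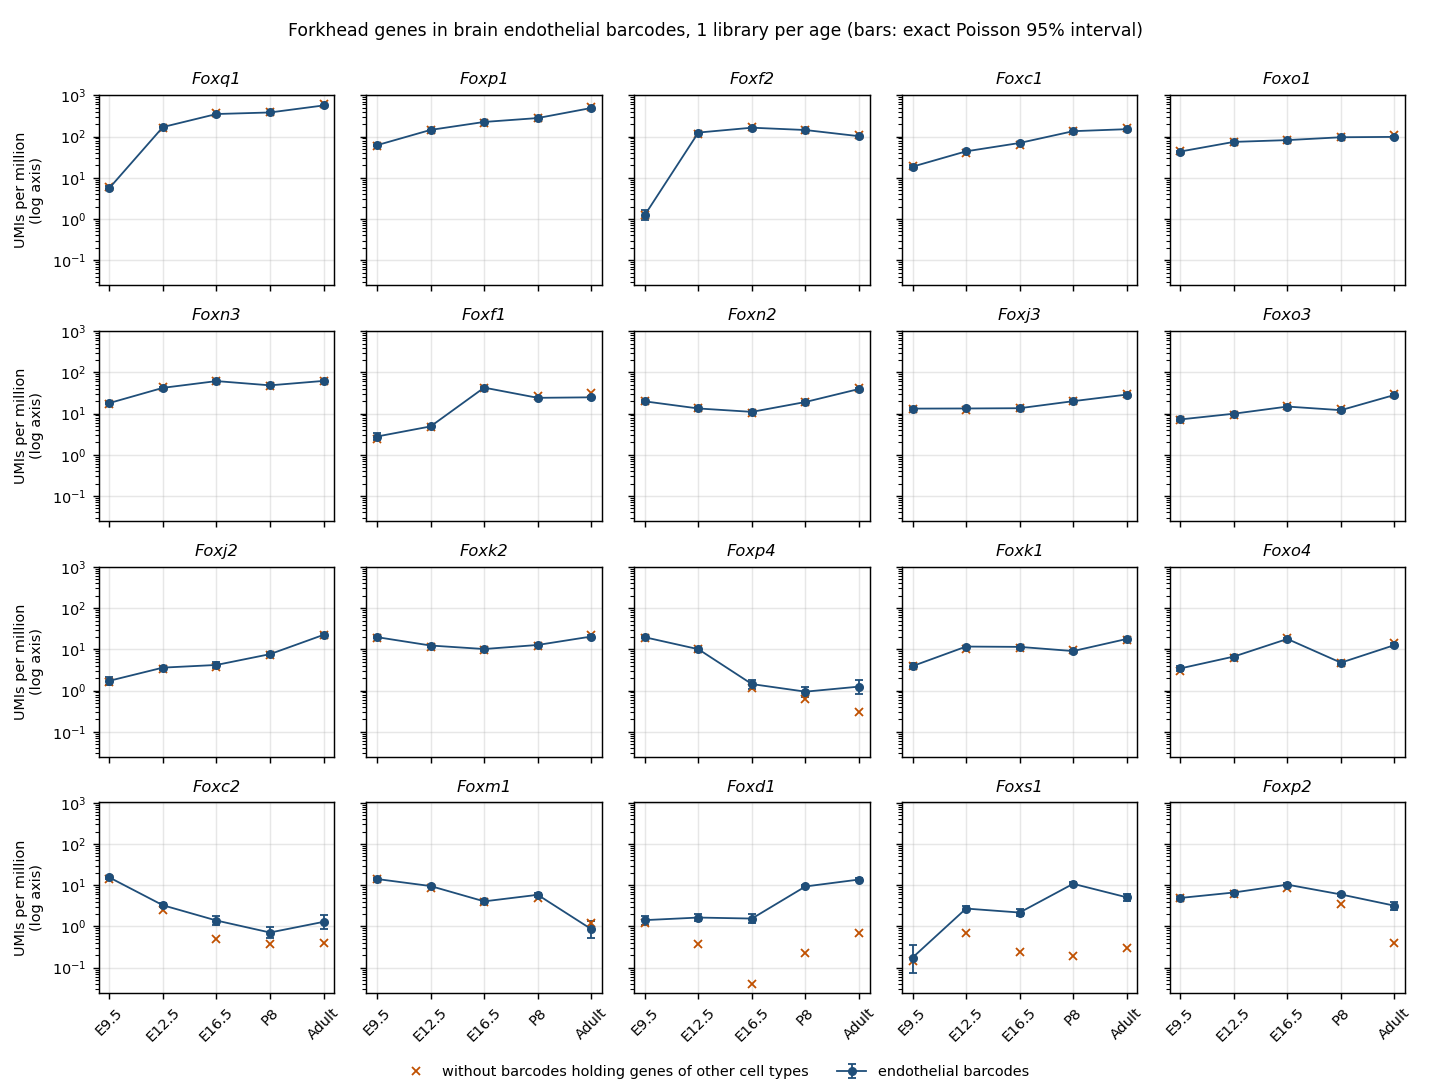
Level in CPM (log axis) of the 20 forkhead genes that reached 10 CPM, in brain endothelial barcodes at 5 ages, 1 library each; bars are exact Poisson 95% intervals, and crosses leave out barcodes with genes of other cell types. Foxq1 and Foxf2 climb from 5.62 and 1.25 CPM at E9.5 to over 100 at all later ages, while the crosses for Foxd1 and Foxs1 lie far below their points at P8.

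Foxf2 and Foxq1, the members most tied to brain endothelium in earlier work, were low at E9.5 and among the highest at E12.5. Foxf2 was at 1.25 CPM at E9.5 (95% interval 0.944 to 1.61) and 125.5 at E12.5 (123 to 128). It was then at 164 (160 to 168) in the E16.5 library, 144 (141 to 147) at P8 and 102 (98 to 106) in the adult. The E9.5 library stood alone, and the other 4 lay within 102 to 164. Foxf2 was thus 101-fold higher at E12.5 than at E9.5 (77.7 to 133). Foxq1 was at 5.62 CPM at E9.5 (4.95 to 6.35), and at 170, 352, 384 and 568 (559 to 578) at the later ages in order, higher at each age than at the one before. It was 30.3-fold higher at E12.5 than at E9.5 (26.8 to 34.5) and 2.06-fold higher at E16.5 than at E12.5 (2.02 to 2.11). The E9.5, P8 and adult matrices name 1 software version in their headers and the others name none. Within those 3 libraries, Foxf2 was 116-fold (89.2 to 153) and Foxq1 68.3-fold (60.4 to 77.5) higher at P8 than at E9.5. These comparisons of ages further apart were added after the data were seen. The E9.5 library also held 112 epithelial barcodes with Foxe1 at 38.4, Foxa2 at 15.1 and Foxa1 at 13.7 CPM. Whether its endothelial barcodes came from brain alone was not tested, nor was the part of other tissue in the steps from E9.5.

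The shares of barcodes with a UMI were lowest at E9.5 for both genes. A Foxq1 UMI was found in 3.86%, 56.2%, 84.6%, 87.6% and 85.1% of endothelial barcodes from the youngest age to the adult. At an equal 2000 UMIs per barcode these shares were 1.15%, 24.4%, 46.6%, 53.1% and 64.4%, after 272, 0, 0, 96 and 172 shallower barcodes were left out. For Foxf2 the shares were 0.904%, 54.5%, 70.6%, 68.4% and 45.1%, and 0.223%, 19.6%, 26.6%, 23.7% and 19.0% after thinning. In barcodes of the same libraries with none of the 6 endothelial genes, Foxq1 was found in 0% to 6.92% and Foxf2 in 0.447% to 6.92%, at median depths of 1247 to 6496.5 UMIs.

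Both genes were higher in endothelial than in non-endothelial barcodes from E12.5 on. Foxq1 was 3.12-fold higher at E9.5 (1.41 to 8.58), 19.3-fold at E12.5 (13.8 to 28), 13.7-fold at P8 (7.64 to 27.4) and 25.3-fold in the adult (14.8 to 47.6). At E16.5 the 51 non-endothelial barcodes held 0 Foxq1 UMIs, which allows up to 10.7 CPM at 3 UMIs and 13.1 by the exact Poisson limit, beside 352 in endothelial barcodes. Foxf2 was 11.5-fold higher at E12.5 (8.52 to 16), 5.65-fold at P8 (3.07 to 11.8) and 6.57-fold in the adult (3.45 to 14.4). At E9.5 the ratio for Foxf2 was 0.83, on 57 and 5 UMIs, and at E16.5 it was 46.1 on 1 non-endothelial UMI (8.27 to 1820). In the few mural barcodes, those with at least 3 mural genes and no endothelial gene, Foxf2 had 22 UMIs at E12.5 (31 barcodes, 78.1 to 189 CPM), and was at 78.1 CPM at P8 (24 barcodes, 31.4 to 161) and 50.4 in the adult (36 barcodes, 20.2 to 104). Foxq1 in the same mural barcodes was at 85 CPM at E12.5 (47.6 to 140), 78.1 at P8 (31.4 to 161) and 36 in the adult (11.7 to 83.9), on 15, 7 and 5 UMIs.

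Counted by a 2-fold difference among genes with at least 20 UMIs in both kinds of barcode together, members higher in endothelial barcodes numbered, in order of age, 3 of 25 (8.95% of all genes tested), 6 of 24 (23.8%), 9 of 21 (34.2%), 8 of 23 (23.7%) and 7 of 23 (16.3%). Members lower there numbered 8 (13.6% of all genes), 6 (14.7%), 5 (16.5%), 7 (21.5%) and 5 (24.2%). Foxq1 was higher at every age, Foxf2 at all ages but E9.5, and Foxo1 at all ages but the adult. These counts go by the ratio alone, and some ratios have counting intervals that include equal levels. Among members counted as higher these were Foxs1, Foxo4 and Foxp2 at E16.5 (0, 2 and 1 non-endothelial UMIs), Foxm1 and Foxo3 at P8 (1 and 2) and Foxk1, Foxo6, Foxc2 and Foxl2 in the adult (5, 0, 0 and 0). With 0 non-endothelial UMIs, Foxs1, Foxo6, Foxc2 and Foxl2 lay below what 3 UMIs would give there, so no difference can be read for them. Among members counted as lower these were Foxj3 and Foxp4 at E16.5, Foxc2 and Foxl2 at P8 and Foxs1 and Foxm1 in the adult.

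**Figure D2:**
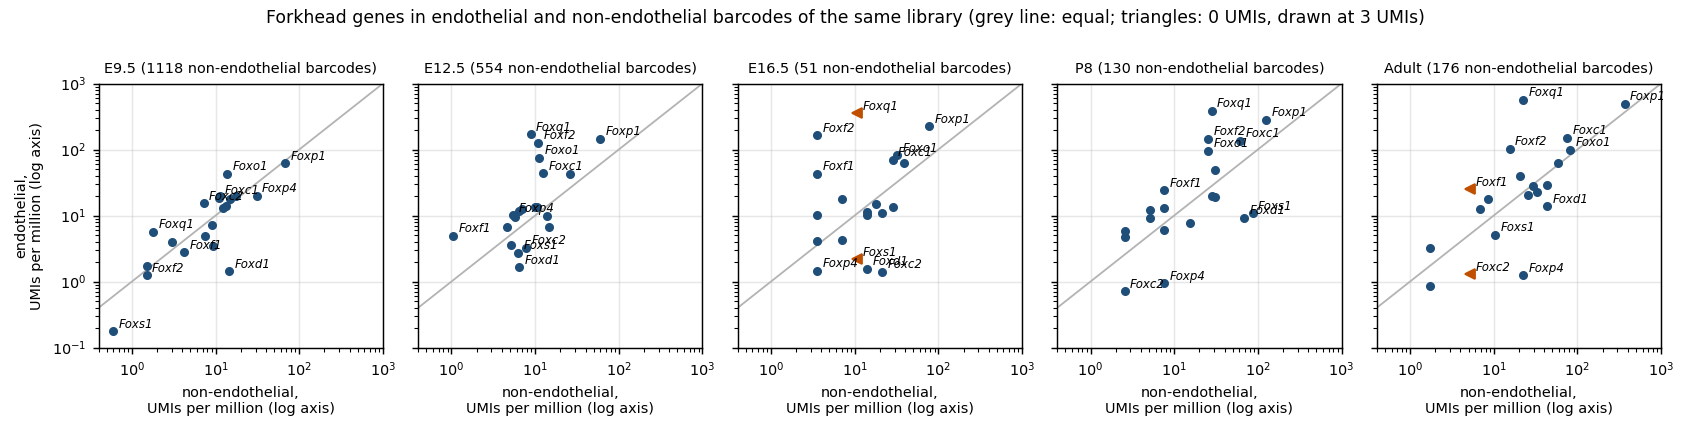
Level of each of the 20 forkhead genes in endothelial (vertical) against non-endothelial barcodes (horizontal) of the same library, both in CPM on log axes, 1 panel per age; triangles mark 0 non-endothelial UMIs, drawn at 3 UMIs. Foxq1 and Foxf2 sit above the line of equal levels from E12.5 on, and Foxd1 and Foxs1 sit below it at P8 and in the adult.

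Foxc1, which shares a chromosome stretch with Foxq1 and Foxf2, was detected at all ages and was higher at each age than before. Its level was 18.6 CPM at E9.5 (17.4 to 19.9), and 43.8, 69.9, 135 and 151 (146 to 156) at the later ages in order. The difference from E9.5 was 2.36-fold at E12.5 (2.19 to 2.54) and 7.25-fold at P8 (6.75 to 7.79). Mural barcodes also held Foxc1, at 223 CPM at P8 (136 to 344) and 259 in the adult (181 to 359). Its paralogue Foxc2 ran the other way, from 15.4 CPM at E9.5 (14.3 to 16.6) to 3.26, 1.39, 0.711 and 1.29 at the later ages. It was 4.72-fold lower at E12.5 than at E9.5, and without barcodes that held genes of other types its last 3 levels were 0.385 to 0.485.

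Foxo1, the main FOXO factor of endothelium, varied least of Foxf2, Foxq1, Foxc1 and Foxo1. It was at 43.3 CPM at E9.5 (41.4 to 45.3), and at 74.2, 82.0, 96.2 and 98.1 (94.1 to 102) at the later ages, and the intervals at P8 and in the adult overlapped. It was 2.22-fold higher at P8 than at E9.5 (2.11 to 2.34), and no step between neighbouring ages reached 2-fold. Foxo1 was 3.14-fold higher in endothelial than in non-endothelial barcodes at E9.5 (2.34 to 4.3), 6.66-fold at E12.5 (4.94 to 9.22) and 3.77-fold at P8 (2.05 to 7.87), and 1.21-fold in the adult. Foxo3, which shares its targets, was at 7.21, 9.93, 14.8, 12.1 and 28.3 CPM over the 5 ages and was 2.35-fold higher in the adult than at P8 (2.11 to 2.61). Foxo4 was at 3.45, 6.69, 17.9, 4.76 and 12.7, highest at E16.5. In non-endothelial barcodes Foxo3 and Foxo4 rested on 31 UMIs or fewer per library, save for Foxo3 at E12.5, with 53.

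A list of 16 genes described as FOXO targets was read beside these. From E9.5 to E12.5, 8 of the 15 with enough UMIs were 2-fold or more higher and 1 lower (23.7% and 12.7% of all genes tested), with a median log2 difference of 1.16 against 0.21 over all genes. From E12.5 to E16.5 it was 8 higher and 1 lower of 16 (11% and 14% of all genes, median 0.97 against -0.04). From E16.5 to P8 it was 4 and 2 (15.2% and 10.7% of all genes, median 0.37 against 0.07), and from P8 to the adult 7 and 3 (17.5% and 14.7%, median 0.84 against 0.08). Igf1r, a receptor upstream of FOXO phosphorylation and itself on the list, went from 33.1 CPM at E9.5 to 73.9, 292, 357 and 1050. Insr, the insulin receptor, went from 8.57 to 38.4, 82, 150 and 173, and Klf6 from 56.4 to 133, 351, 221 and 432. Irs2, the gene lower in the steps to E12.5 and to E16.5, was at 4.57, 0.261, 0.118, 0.562 and 4.39. Ccng2, an inhibitor of cell cycle progression, peaked at E16.5 (5.31, 49.1, 104, 41.7 and 25.8), and Angpt2, a ligand of TIE2, was at 5.97 at E9.5, 30.9 to 43.4 at the next 3 ages and 6.02 in the adult.

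Foxp1, a repressor with broad expression, was high at every age. Its level was 61.8 CPM at E9.5 (59.5 to 64.1), and 145, 226, 281 and 493 (484 to 502) at the later ages, which made it the highest member at E9.5 and the next after Foxq1 later. It was 2.35-fold higher at E12.5 than at E9.5 (2.26 to 2.45). Foxp1 was not limited to endothelium, since non-endothelial barcodes held 60.1 to 368 CPM. Foxp4 went from 19.7 CPM at E9.5 and 10.1 at E12.5 to 1.44, 0.943 and 1.25, a 7-fold lower level at E16.5 than at E12.5, and at 0.615 at P8 and 0.298 in the adult without barcodes holding genes of other types. Foxp2 was at 3.18 to 10.3 CPM and highest at E16.5 by summed UMIs. Over all settings tried, however, Foxp2 spanned 8.37 to 10.4 CPM at E16.5 and 3.58 to 13.2 at P8, so the order of these ages is not settled. Without those barcodes it was at 3.58 in place of 5.96 at P8 and 0.397 in place of 3.18 in the adult.

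Foxf1 appeared late. Its level was 2.78 CPM at E9.5 (2.31 to 3.3) and 4.89 at E12.5 (4.42 to 5.4). It was at 42.6 (40.7 to 44.7) in the E16.5 library, 24.1 at P8 and 24.8 in the adult, so that it was 8.72-fold higher at E16.5 than at E12.5 (7.82 to 9.75). Without the E16.5 library, P8 was 4.94-fold above E12.5 (4.41 to 5.53). Foxf2, its paralogue, had its large difference 1 sampled age earlier. Non-endothelial barcodes held at most 14 Foxf1 UMIs per library.

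The remaining members of this size have broad roles. Foxn3, a repressor linked to cell cycle checkpoints, was at 18, 42.1, 61.4, 48.4 and 62 CPM. Foxn2 was at 11 to 39.5, Foxj3 at 13.2 to 28.9 and Foxk2 at 10.2 to 20.5. Foxn2 and Foxj3 were highest in the adult, while the Foxk2 intervals at E9.5 (18.5 to 21.1) and in the adult (18.7 to 22.4) overlapped. Foxk1, which with FOXK2 acts on metabolic and autophagy genes, was at 3.93 at E9.5 and 9.1 to 17.9 later, and Foxj2 went from 1.73 to 22.5 CPM. Across neighbouring ages the members 2-fold or more higher were 8 of 28 tested from E9.5 to E12.5 (23.7% of all genes tested), 4 of 24 from E12.5 to E16.5 (11%), 3 of 24 from E16.5 to P8 (15.2%) and 5 of 23 from P8 to the adult (17.5%). Those lower were 5 (12.7% of all genes), 3 (14%), 3 (10.7%; the interval of Foxr1, 1 of these, includes equal levels) and 2 (14.7%). Over the whole span from E9.5 to the adult, 16 of 27 were higher (35% of all genes) and 8 lower (24.4%). Without E16.5, 7 of 24 members were higher and 3 lower at P8 than at E12.5 (21.1% and 19.7% of all genes).

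Foxm1, the mitotic member, was at 14.1 CPM at E9.5 (13 to 15.2), and at 9.52, 4.05, 5.84 and 0.86 (0.525 to 1.33) at the later ages. It was 2.35-fold lower at E16.5 than at E12.5 and 6.79-fold lower in the adult than at P8. Of 13 genes of G2 and mitosis, 3 were 2-fold or more lower at E12.5 than at E9.5 and 12 at E16.5 than at E12.5, 2 (Cenpf and Mki67) were higher at P8 than at E16.5, and 12 were lower in the adult than at P8, with a median log2 difference of -6.05 against 0.08 over all genes. The shares of all genes lower were 12.7%, 14% and 14.7% in these steps from E9.5, E12.5 and P8, and 15.2% were higher from E16.5 to P8. Mki67, a marker of cycling cells, was at 178, 51.5, 12.6, 70.4 and 0.86 CPM, and Ccnb1, the mitotic cyclin B1, at 154 at E9.5 and 0.559 in the adult. Foxm1 and 12 of the 13 genes were lowest in the adult library; the exception was Cdc25b, a phosphatase that activates cyclin-dependent kinases, at 11 CPM there and 4.92 to 8.72 before.

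Foxd1 and Foxs1 had levels above 9 CPM at P8, but those UMIs lay in barcodes that also held genes of other cell types. Foxd1 was at 1.42, 1.64, 1.55, 9.31 and 13.7 CPM over the 5 ages, and at 1.21, 0.367, 0.0404, 0.231 and 0.694 without such barcodes. Foxs1 was at 0.175, 2.71, 2.17, 10.8 and 5.08, and at 0.144, 0.682, 0.243, 0.192 and 0.298 without them. In mural barcodes at P8 Foxs1 reached 357 CPM (244 to 504) and Foxd1 256 (163 to 385), and in the adult Foxs1 was at 43.2 (15.8 to 93.9) and Foxd1 at 173 (111 to 257). Beside these, the highest mural gene in endothelial barcodes, Rgs5, was at 361 CPM at P8 and 718 in the adult; its part in these levels was not tested beyond leaving out those barcodes. Foxj1, the master regulator of motile cilia, was at 0.0993 CPM in endothelial and 56.1 in non-endothelial barcodes at P8, and at 0.559 and 96.7 in the adult. At E9.5 the 112 epithelial barcodes held Foxe1 at 38.4 CPM (25.5 to 55.5), Foxa2 at 15.1 and Foxa1 at 13.7, pioneer factors of endoderm, which were at 0.437 to 0.634 CPM in endothelial barcodes. At E12.5 the 28 mesenchymal barcodes held Foxp2 at 144 (94 to 211) and Foxc2 at 66.4 (34.3 to 116).

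The other factors listed as brain endothelial regulators were compared with Foxf2 and Foxq1. From E9.5 to E12.5, 8 of 10 were 2-fold or more higher and 0 lower, against 23.7% and 12.7% of all genes tested, with a median log2 difference of 1.52 against 0.21. At P8 and in the adult all 10 were 2-fold or more higher than at E9.5, against 30.3% and 35% of all genes. Lef1, the nuclear partner of beta-catenin in Wnt signalling, was at 27.8, 80.7, 130, 186 and 539 CPM at the 5 ages in order. Of 9 vascular genes linked to Foxf2 or the Foxc genes, 3 (Cxcr4, Dll4, Sox17) were 2-fold or more higher and 2 lower at E12.5 than at E9.5 (median 0.43 against 0.21); Itgb3, an integrin subunit, was at 18.4, 3.78, 0.918, 1.31 and 1.12. Tek, the TIE2 receptor, was at 89.3, 105, 160, 194 and 307. These lists say nothing of which factor acts on which gene. Like the lists of FOXO targets and of G2 and mitosis genes, they were chosen with earlier results of these data known. The comparisons of P8 and the adult with E9.5 were added after the data were seen. The lists' shares beside those of all genes are therefore a description with no test.

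Within endothelium, Foxf1 and Foxp2 differed between barcodes with arterial and with venous genes. Arterial barcodes held at least 2 of 7 arterial genes and fewer than 2 of 5 venous genes, and venous barcodes the reverse; this division was chosen after the data were seen and gives ranges, not cell types. The 186, 1288, 1088, 772 and 303 barcodes with at least 2 genes of both lists, in order of age, were left out, more than the arterial range held at E12.5, E16.5 and P8. Foxf1 was at 19.1 CPM in 555 arterial (15.3 to 23.5) and 63.8 in 1364 venous barcodes (59.9 to 68) at E16.5, and at 13.7 (63 UMIs) and 38 (305 UMIs) in the adult. At E9.5 its direction was the reverse, with 4.65 in arterial (3.47 to 6.1) and 1.49 in venous barcodes (0.713 to 2.74). Foxp2 was at 22.9 in 590 arterial (19 to 27.4) and 2.18 in 1986 venous barcodes (1.69 to 2.77) at P8, and at 9.11 (6.56 to 12.3) and 0.374 (3 UMIs) in the adult. Over all endothelial barcodes, leaving out those with genes of other types lowered Foxp2 at both ages, and the part of such barcodes in these arterial levels was not tested. Members 2-fold or more higher in arterial barcodes were, in order of age, 3 of 18 (5.13% of all genes; Foxf1, Foxq1 and Foxf2), 0 of 20 (5.03%), 1 of 20 (6.22%; Foxc2, on 10 and 11 UMIs), 1 of 20 (7.63%; Foxp2) and 1 of 17 (6.82%; Foxp2). Members lower were 0 (2.2%), 1 (2.94%; Foxf1), 1 (4.83%; Foxf1), 3 (6.5%; Foxs1, Foxm1 and Foxd1) and 1 (5.04%; Foxf1). Over all endothelial barcodes at P8, Foxs1 fell to 0.192 and Foxd1 to 0.231 CPM without those holding genes of other types. The part of such barcodes in their venous levels was not tested. At E9.5 Foxq1 was at 10.6 CPM in arterial (8.73 to 12.6) and 2.23 in venous barcodes (1.25 to 3.68), while the intervals of Foxf2 in the ranges overlapped (24 and 5 UMIs). From E12.5 on, Foxq1 and Foxf2 differed by less than 2-fold between the ranges. Venous barcodes were deeper at each age (at P8 a median of 10683.5 against 7271 UMIs), and 236 of 590 arterial and 1205 of 1986 venous barcodes at P8 lay next to a limit. The median barcode of each range had 0 UMIs of the mural list.

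Chromatin was read as open or not open in each library, from the peak lists the authors called per library (19464 to 144197 peaks). The libraries gave 10139069 to 59082479 tags. A peak within 500 bp of the start was found in most endothelial libraries for 27 of the 44 coding members, against 54.5% of 21896 coding genes, in every endothelial library for 11 (36.5% of genes) and in none for 5 (29.9%). Foxo1 was open in 37 of 37 endothelial and 29 of 29 input libraries, and Foxc1 in 36 of 37 and 28 of 29. Foxq1 was open in 31 of 37 and 26 of 29.

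The Foxf2 promoter was open by tissue. It was open in 8 of 8 brain and 5 of 5 retina endothelial libraries, in 4 of 4 from trunk, 3 of 8 from heart and 2 of 4 from lung, and in 0 of 4 from kidney and 0 of 4 from liver. The 3 heart libraries were from E12 and the 2 lung libraries from P6. Input nuclei had it in 5 of 5 brain and 5 of 5 lung libraries and 0 of 9 from kidney and liver, so an open Foxf2 promoter was not limited to endothelial nuclei of brain. In the authors' deposited table of peaks, the fold over local background at the Foxf2 promoter was 2.46 to 4.34 in brain endothelial and 2.14 to 3.28 in brain input libraries, and 3.87 to 5.05 in lung input libraries. Foxl2, a factor best known from ovary, was open in 8 of 8 brain endothelial libraries and 11 of 29 from other organs, and in 5 of 5 brain input and 14 of 29 of all input libraries, while its RNA reached at most 1.27 CPM.

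**Figure D3:**
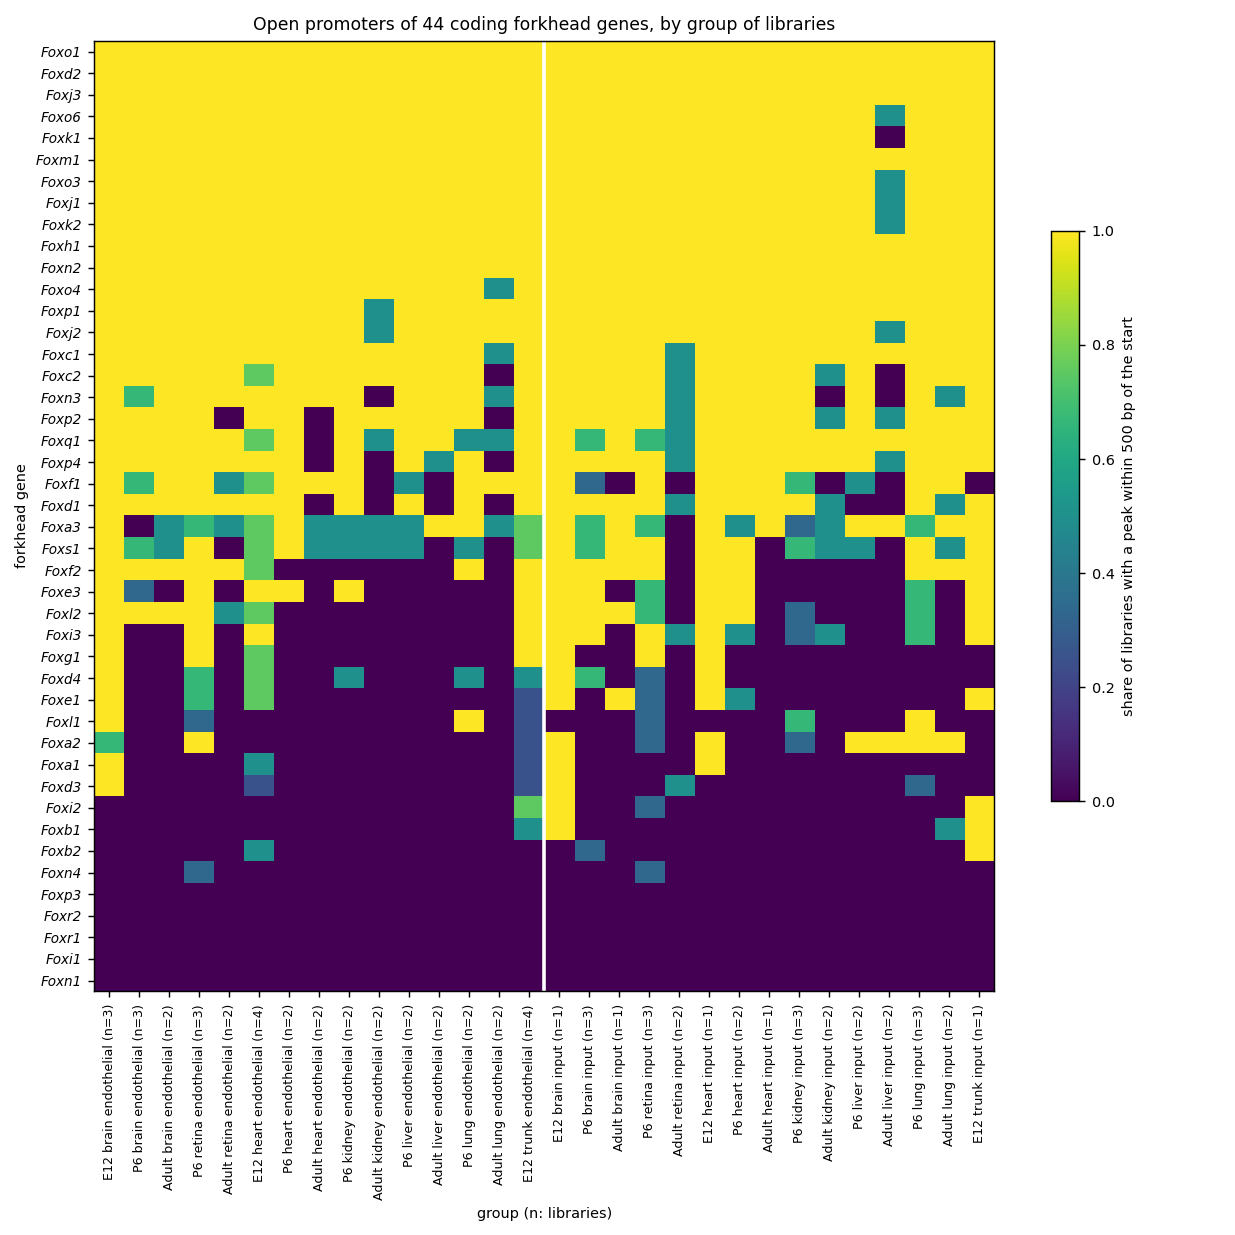
Share of libraries with a peak within 500 bp of the start (colour, 0 to 1) for 44 coding forkhead genes (vertical) in each group of libraries (horizontal; endothelial left of the white line, input right; n is the number of libraries). The 11 genes at the top are open in every endothelial library, and Foxf2 is open in all brain and retina endothelial groups and in no kidney or liver group.

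Endothelial and input libraries were compared within each tissue and age by an exact stratified test over libraries, with Benjamini-Hochberg adjustment over all regions. Of 1080 regions near members that were open in at least 3 libraries, 78 were open more often in endothelial libraries (7.33% of 283723 regions in the genome) and 171 less often (16.8%). The members' own shares were 7.22% and 15.8%, near the background. Genes differed: Foxo1 had 12 regions open more often and 0 less often of 39 tested, Foxc1 4 and 0 of 19, Foxl2 5 and 2 of 18, Foxk1 5 and 2 of 42, Foxp1 21 and 19 of 152, and Foxn3 10 and 23 of 129. Foxo3 had 2 and 18 of 54, Foxp2 1 and 14 of 56, Foxj3 0 and 10 of 35 and Foxj2 0 and 8 of 22.

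The strongest regions lay beside Foxo1 and inside Foxp1. A region at chr3:52383181-52383900 (mm10), 33.1 kb downstream of Foxo1, was open in 36 of 37 endothelial and 6 of 29 input libraries (adjusted p = 4.34e-06, exact stratified test). It was open in all brain, retina, heart, kidney, liver and trunk endothelial libraries and in 3 of 4 from lung. A region overlapping Foxo1 at chr3:52346927-52347538 was open in 31 of 37 and 4 of 29 (adjusted p = 7.80e-06, exact), and another at chr3:52369830-52370694 in 32 of 37 and 3 of 29 (adjusted p = 1.34e-05, exact; 0.0505 with lists of equal length). No other protein-coding gene lies within 50 kb of Foxo1. In Foxp1, the region at chr6:99335204-99335925 was open in 33 of 37 endothelial and 6 of 29 input libraries (adjusted p = 4.34e-06, exact), and that at chr6:99010783-99012521 in 37 of 37 and 13 of 29. In brain and retina, input nuclei had 0 of 10 libraries open at the Foxo1 regions and at chr6:99335204-99335925, and most of the input libraries open there were from heart or lung.

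Similar regions were seen at Foxn3 (chr12:99548351-99548873, 32 of 37 and 5 of 29), Foxk1 (chr5:142391139-142392747, 8.75 kb from the gene, 28 of 37 and 3 of 29) and Foxp2 (chr6:15303151-15304666, 26 of 37 and 2 of 29). Ap5z1 and Radil are the other protein-coding genes within 50 kb of Foxk1. Regions open less often in endothelial libraries included chr13:31518284-31519325, 38.8 kb from Foxq1 (1 of 37 and 19 of 29, adjusted p = 0.00012, exact; 0.359 with lists of equal length), and chr4:114937454-114938055 near Foxe3 and Foxd2 (0 of 37 and 12 of 29, adjusted p = 0.000202, exact; 0.138 with lists of equal length). With lists cut to equal length, 50 regions near members were called in place of 249. Of the 12 regions picked by smallest p in this comparison, 5 kept the call then and 7 lost it. The regions with an equal-length p given here are among the 7.

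**Figure D4:**
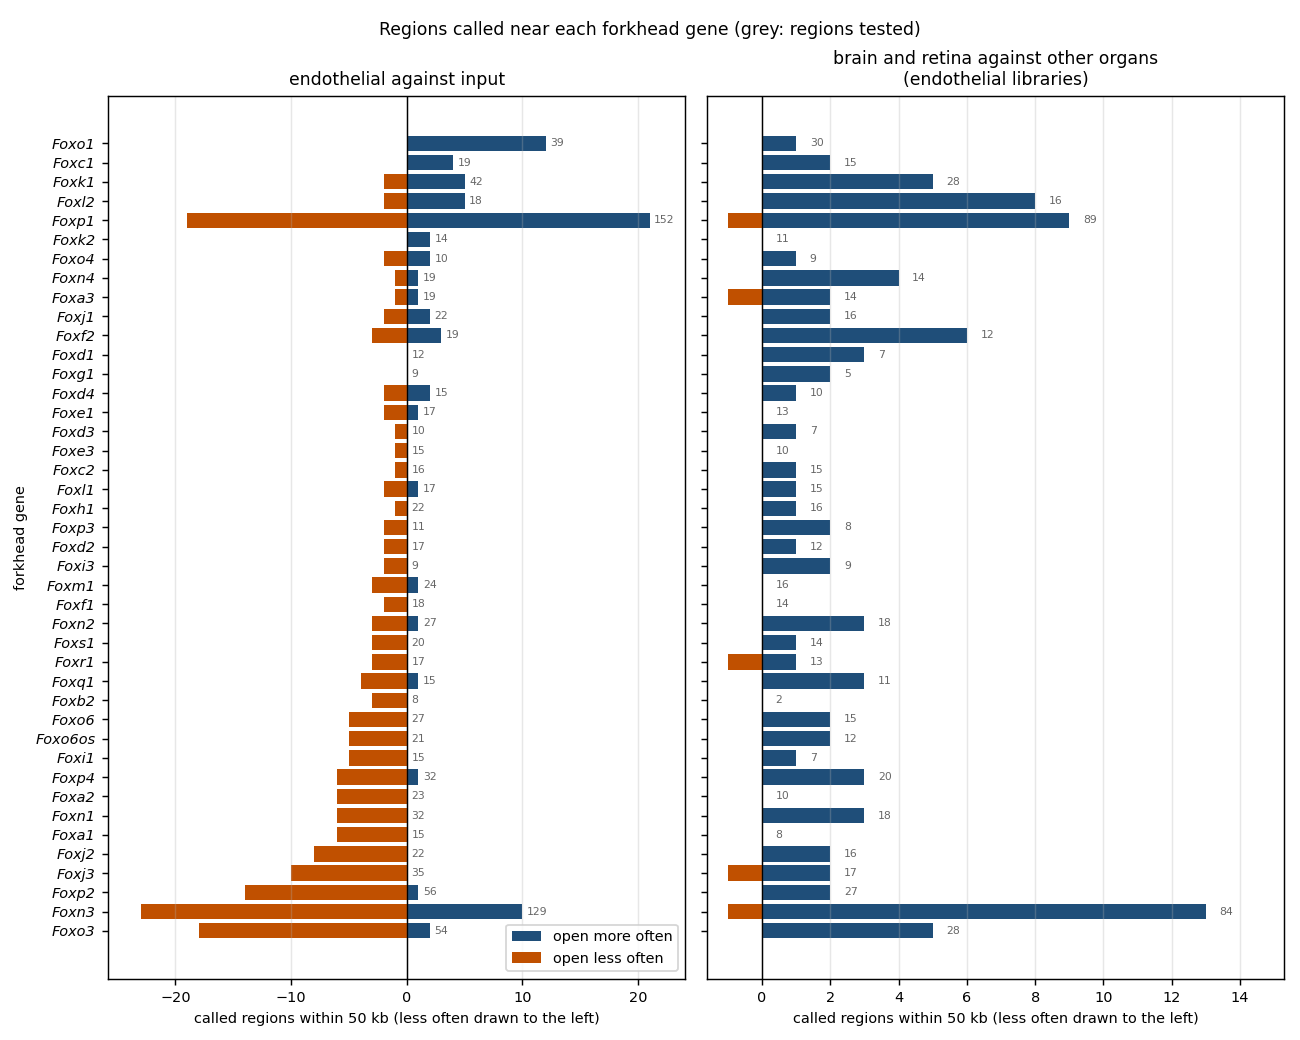
Number of regions called within 50 kb of each forkhead gene, open more often (right, blue) or less often (left, orange), in endothelial against input libraries (left panel) and in brain and retina against other organs (right panel); grey numbers give the regions tested, and Foxb1, Foxi2 and Foxr2, with no call in either comparison, are not drawn. Foxo1 has 12 to the right and none to the left in the left panel, and in the right panel Foxl2 has 8 of 16 and Foxf2, whose openness prompted that comparison, 6 of 12.

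Among endothelial libraries, brain was set against the other organs within each age. Near members 13 of 691 regions were called, or 1.88% (1.87% of all regions in the genome). All 13 were open more often in brain (1.79% of all regions) and 0 less often (0.0773%). They lay near Foxp1 (4), Foxi1 (2), Foxl2, Foxd2, Foxk1, Foxq1, Foxj1, Foxp2 and Foxd1. The region at chr9:98931004-98933386, 22.2 kb upstream of Foxl2, was open in 8 of 8 brain and 3 of 29 other libraries (adjusted p = 0.0148, exact stratified test), and in 1 of 29 input libraries. Faim, Gm1123 and Gm33778 are the other protein-coding genes within 50 kb of Foxl2. The region at chr13:31533136-31533881, 24.3 kb before Foxq1, was open in 6 of 8 brain endothelial libraries and in 0 of 29 others and 0 of 29 inputs (adjusted p = 0.0148, exact). At Foxk1, chr5:142473584-142474100 was open in 8 of 8 and 4 of 29, with 4 of 5 brain inputs open too.

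This count of regions near members rested on single libraries. No count over all regions is set beside the values below, so their changes cannot be read as particular to forkhead genes. The count was 0 without adult brain replicate 2, P6 brain replicate 2 or P6 brain replicate 3, 1 without adult brain replicate 1, and 8 without E12 brain replicate 2 or replicate 3. It was 27 with retina left out of the other organs. With read processing among the strata it was 0. Only P6 brain replicates 1 and 2 then had a counterpart, the P6 retina libraries, which is too few for any call. No other organ shared the processing of the remaining brain endothelial libraries, so tissue and processing cannot be told apart there. The adjusted p of the Foxq1 region was 0.0638 without adult brain replicate 2, 0.0569 without P6 brain replicate 2 and 0.0564 without P6 brain replicate 3, and 0.172 when a peak had to cover 50% of a region, with the same direction each time.

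Since Foxf2 was open in brain and retina alike, these tissues were pooled against the others, a comparison chosen after the data were seen. The Foxf2 regions prompted it, so their values in it are a description with no test. Of 691 regions near members 95 were open more often (11.2% of all regions in the genome) and 5 less often (1.95%). The members' shares were 13.7% and 0.724%, with the Foxf2 regions included. Foxf2 had 6 of its 12 tested regions called and Foxl2 8 of 16, Foxd1 3 of 7, Foxq1 3 of 11, Foxc1 2 of 15, Foxn3 13 and 1 of 84, Foxp1 9 and 1 of 89, and Foxo1 1 of 30. The count in both directions together, 100, was 53 to 62 without any 1 of 13 libraries. These were, with the counts, P6 heart replicates 1 and 2 (61 and 60), P6 kidney 1 and 2 (60 and 56), P6 liver 1 and 2 (57 and 53), P6 lung 1 and 2 (62 and 61), adult retina 1 and 2 (55 and 54) and P6 retina 1, 2 and 3 (54, 58 and 55). It was 28 with lists of equal length and 16 when a peak had to cover 50% of a region. No endothelial library of the other organs shared the read processing of a brain or retina one. Tissue and processing therefore cannot be told apart in the pooled comparison.

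Foxf2, Foxq1 and Foxc1 lie in 1 stretch of chromosome 13, with Foxq1 64.8 kb before Foxf2 and Foxc1 175.2 kb after it, and 252.5 kb from the start of Foxq1 to the end of Foxc1. In the window around them 52 regions were open in at least 3 libraries. The region over the start of Foxf2, chr13:31624905-31627142, was open in 13 of 13 brain and retina and 9 of 24 other endothelial libraries. The region at chr13:31619678-31620677, 5.14 kb upstream, was open in 13 of 13 and 8 of 24. By tissue it was open in 8 of 8 libraries from brain, 5 of 5 from retina, 4 of 4 from trunk, 2 of 4 from kidney, 2 of 4 from lung, 0 of 4 from liver and 0 of 8 from heart. Among inputs it was open in 1 of 5 from brain, 1 of 5 from retina and 3 of 5 from lung, and the region was called in endothelial against input libraries too (21 of 37 and 5 of 29, adjusted p = 0.000553, exact stratified test).

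A further region, chr13:31664980-31665732, 33.6 kb downstream of Foxf2, was open in 8 of 8 brain, 4 of 5 retina, 4 of 4 trunk and 3 of 8 heart endothelial libraries and in 0 of 12 from kidney, liver and lung. The open trunk and heart libraries were all from E12, an age at which retina, kidney, liver and lung were not sampled. Against the other organs brain and retina had 12 of 13 and 7 of 24, and of 29 inputs only 1 library, from brain, had it open. Unlike the promoter itself, these 2 flanking regions were rarely open in brain input nuclei. At the start of Foxc1 the region was open in 36 of 37 endothelial libraries, and the merged region overlapping Foxq1 in 33 of 37. Within 500 bp of an end of Foxq1 a peak was found in 31 of 37: 8 of 8 from brain, 5 of 5 from retina, 4 of 4 from trunk, 4 of 4 from liver, 3 of 4 from kidney, 5 of 8 from heart and 2 of 4 from lung. Near Foxc1, chr13:31830080-31830998, 19.4 kb downstream, was open in 34 of 37 endothelial and 10 of 29 input libraries (adjusted p = 0.000263, exact).

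**Figure D5:**
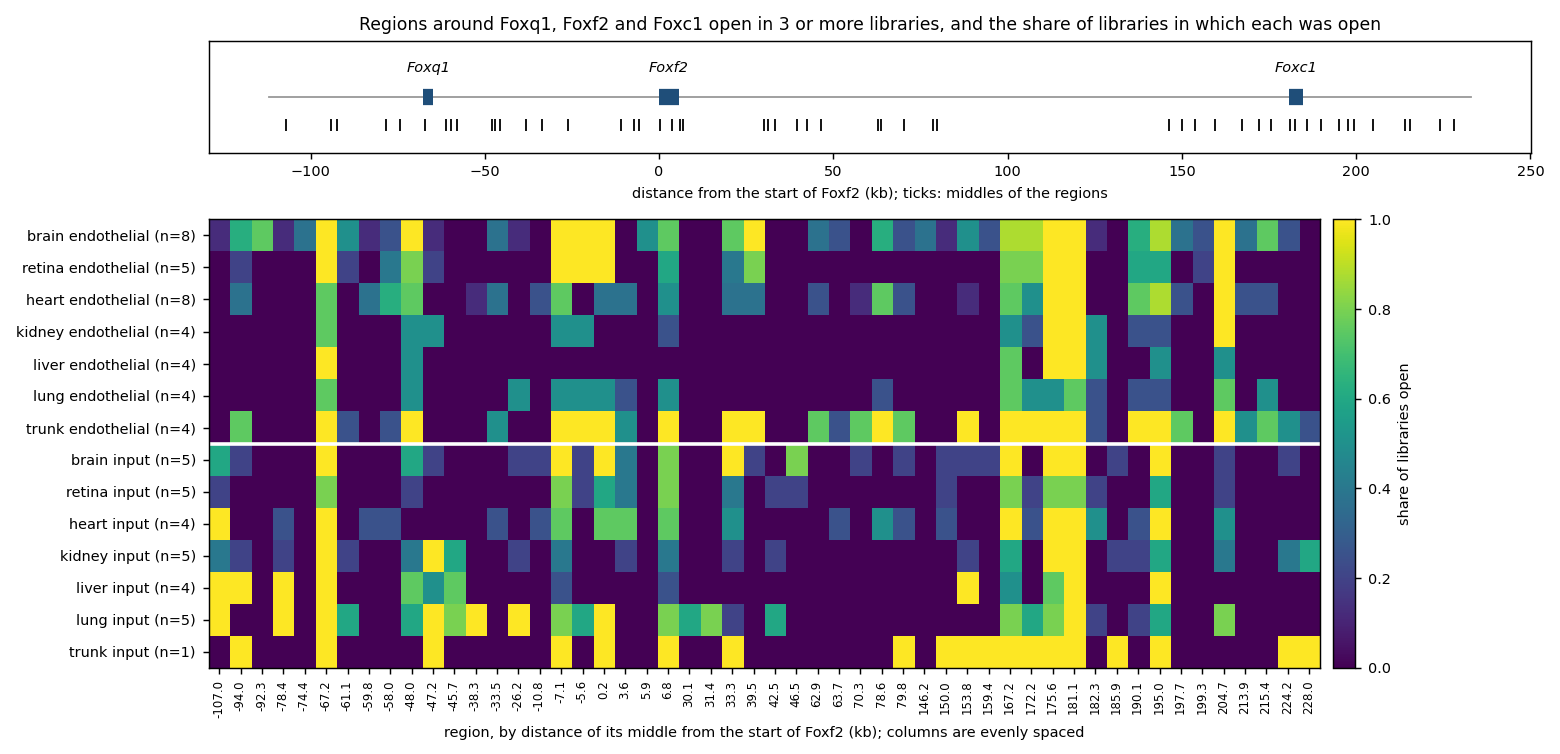
Regions around Foxq1, Foxf2 and Foxc1 that were open in at least 3 libraries: the upper panel places genes and regions by distance from the start of Foxf2 in kb, and the lower gives the share of libraries open (colour, 0 to 1) by tissue, endothelial above and input below the white line. The regions 5.6 kb before and 39.5 kb after the Foxf2 start are open in 8 of 8 brain endothelial libraries and in no liver one; the first is open in 2 of 4 kidney and 0 of 8 heart libraries and the second in 0 of 4 and 3 of 8. The regions over Foxq1 and over the start of Foxc1 are open in most libraries of each tissue.

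Heart endothelial libraries had 10 of 691 member regions called (1.26% of all regions), 7 open more often (1.13%) and 3 less often (0.137%), and members' shares were 1.01% and 0.434%. The 3 less often open included the Foxf2 upstream region above (0 of 8 and 21 of 29, adjusted p = 0.0259, exact stratified test) and chr3:52262309-52263047, 5.29 kb upstream of Foxo1 (0 of 8 and 18 of 29, adjusted p = 0.0283, exact). The Foxo1 region was open in 10 of 10 brain and retina inputs. The 7 more often open lay near Foxj3 (2), Foxn3 (2), Foxk2, Foxp4 and Foxo3, with at most 6 of 8 heart libraries open. Heart inputs had the Foxj3 regions open in 4 of 4 and 3 of 4 libraries and each Foxn3 region in 3 of 4. They had those at Foxk2 and Foxo3 open in 2 of 4 and that at Foxp4 in 1 of 4. The count of 10 was 0 without E12 heart replicate 4 or P6 heart replicate 1 or 2, 1 without E12 heart replicate 1 or 2, and 16 without E12 heart replicate 3, whose list was short (39096 peaks). The adjusted p of the Foxf2 region, by the same exact test, was 0.0596 to 0.109 without E12 heart replicate 1, 2 or 4 or P6 heart replicate 1 or 2, and 0.351 with the stricter peak threshold. No endothelial library of another organ shared the read processing of the heart libraries, so tissue and processing cannot be told apart in this comparison.

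Retina endothelial libraries had 78 of 494 member regions open more often, or 15.8% (17.4% of all regions), and 0 less often (0.391%). Foxn3 (13), Foxo3 (11) and 4 each at Foxp3, Foxn4, Foxi3, Foxn1, Foxj1 and Foxp4 led. The 12 regions named, tied at the smallest p and picked with at most 3 per member, were open in 5 of 5 retina and 0 of 21 other P6 and adult endothelial libraries. Some were open at E12, such as chr5:142420796-142422209 in Foxk1 in 3 of 3 brain libraries and 1 from trunk. Each was also open in 3 to 5 of 5 retina inputs, for example chr10:42256268-42256625 in Foxo3 in 4. The part of other retinal nuclei in these calls was not tested. The count was 41 or 42 without P6 retina replicate 1, 2 or 3 (41, 42 and 41) and 23 with lists of equal length. It was 0 with read processing among the strata, which left only P6 retina against P6 brain replicates 1 and 2, too few libraries for any call.

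Liver had 3 of 494 member regions called, or 0.607% (2.08% of all regions), all open more often (2%) and 0 less often (0.0782%), near Foxj1, Foxn3 and Foxo4. Those at Foxj1 (chr11:116353211-116353997) and Foxn3 (chr12:99425311-99425926) were open in 4 of 4 liver and 0 of 22 other P6 and adult endothelial libraries, in 1 E12 heart library and in 0 of 29 inputs (adjusted p = 0.0156, exact stratified test), and the count was 0 without any 1 of the 4 liver libraries. In kidney and lung 0 regions were called in the genome by this test, with 11 and 17 of 494 member regions at an unadjusted p under 0.05 (4289 and 5383 of all 120272); the lung count was 3 with lists of equal length.

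By age, 36 of 494 member regions were called, or 7.29% (6.39% of all regions), all open less often in adult than in P6 endothelial libraries (6.38%), and 0 more often (0.00915%). The region at chr17:47832499-47834737, 32.4 kb downstream of Foxp4, was open in 2 of 12 adult and 14 of 14 P6 libraries (adjusted p = 0.0153, exact stratified test). At chr13:31577512-31578030, 16.5 kb from Foxq1 and 47.8 kb before Foxf2, it was 3 of 12 and 14 of 14 (adjusted p = 0.0206, exact; 0.0564 without adult retina replicate 2), and in Foxo1, chr3:52299414-52300072 was open in 2 of 12 and 13 of 14. Lists were shorter in the adult, and with lists of equal length 0 member regions were called. The count was 55 without P6 brain replicate 1 (27160 peaks), 21 to 23 without adult heart replicate 1 (22) or 2 (23), P6 heart replicate 1 (23), adult kidney replicate 1 (21), P6 kidney replicate 1 (23) or adult lung replicate 2 (22), and 11 without adult retina replicate 1 or 2. Between P6 and E12 only brain and heart endothelial libraries were compared (5 of P6 and 7 of E12), and 0 regions were called. At an unadjusted p under 0.05 by the exact test were 45 of 545 member regions and 9162 of all 126763. The chromatin libraries analysed here begin at E12, after the step from E9.5 to E12.5 over which Foxf2 and Foxq1 RNA differed by the largest fold of neighbouring ages.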

How the data were processed

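Open chromatin was measured in 66 libraries and RNA of single brain cells in 5. Per the file headers, the authors called broad peaks with MACS2 2.1.2 on each library alone, with no control and 1 tag kept per position. Per the file headers each peak carries a pileup signal, a fold enrichment over local background and −log10 of its p and q values. The pileup was not compared between libraries, the fold is printed only for promoters, and −log10 q of at least 5 served as a stricter threshold. Bowtie2, SAMtools 1.13, Picard and mm10 are named per the submitters' processing notes. The single-cell matrices are deposited UMI counts per gene and barcode; Cell Ranger, Seurat 4.0.4 and mm10 are named per the submitters' processing notes.

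Peaks of all libraries were merged into regions (overlap of at least 1 bp), each open or not open in a library. Regions open in at least 3 of the libraries compared were tested by an exact 2-sided conditional test, stratified by age (and by tissue for endothelial against input, or tissue alone between ages), with Benjamini-Hochberg adjustment over all of them and calls at an adjusted p under 0.05. Tested on simulated data in which 200 regions had an open share of 0.1 or 0.9, the test recovered 100% of these for endothelial against input, 48.5% for brain, 32.5% for heart and 83% for brain with retina, and 0% for kidney, liver, lung, retina, adult against P6 and P6 against E12. For kidney, liver, lung and P6 against E12 the 0% was fixed in advance, since 200 regions at the smallest possible p are too few to pass the adjustment. In the data, liver, retina and adult against P6 did have calls. The counts of 0 for kidney, lung and P6 against E12 say little, since a call there needs many more regions at the smallest p. Promoters are 500 bp on each side of the 5′ end, or of either end for the 16 members whose strand was not in the table used, Foxq1, Foxf1 and Foxk1 among them.

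UMIs were summed per library with exact Poisson 95% intervals, and shares were compared after thinning to 2000 UMIs. A 2-fold difference was counted among genes with at least 20 UMIs in both sums together. Doublets were not called; barcodes with 2 or more genes of another cell type's list were left out as an alternative. Non-endothelial barcodes held none of the 6 endothelial genes.

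Members with at least 10 counts per 1000000 UMIs in any library are named, as are Foxf2, Foxq1, Foxc1 and Foxo1, members with called regions in the endothelial or brain comparison, the 3 with most calls in each other comparison, and up to 3 regions per member and 12 per comparison by smallest p. The examples shown from the fixed gene lists, the Foxl2 promoter and cluster values, the stated epithelial and mesenchymal levels and Foxj1 were chosen for display after the values were seen. The members and lists were chosen with earlier results of these data known, and the pooling of brain and retina, the arterial and venous ranges and the steps from E9.5 were added after the data were examined. The 54 bulk RNA libraries were not used here. Python 3.11.15, numpy 2.4.6, scipy 1.17.1, pandas 2.3.3 and matplotlib 3.10.9 were used.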

Additional observations from a re-analysis of the deposited data

Results flagged for a closer look

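In the 4 heart endothelial libraries of E12, 1 library stood apart: replicate 3 had 153 open regions near forkhead genes, against 434, 438 and 459 in the others. Its distance to the nearest library was 0.918 of the group's whole range. Its peak list was short, with 39096 peaks, and 21 forkhead promoters were open in it. A gap past the 95% critical value of Dixon's test, the limit used here, arises by chance in about 1 in 20 groups, and 6 were examined. The heart comparison is given without this library in the report.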

How the results depend on the processing

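Values are counts of regions near forkhead genes called by the exact stratified test. Counts over all regions under the same settings are not set beside them, so a change cannot be read as particular to forkhead genes. Endothelial against input gave 249, and 50 with lists of equal length, 117 with the stricter peak threshold and 99 when a peak had to cover 50% of a region. Brain gave 13, and 2, 0 and 4 under these, 5 with no filter on regions, 0 with read processing in the strata and 27 without retina. Heart gave 10, and 1, 6 and 2 under the first 3. Liver gave 3, and 7 with the stricter threshold, 9 with 50% coverage and 0 with read processing in the strata. Retina gave 78, and 23 with equal lists and 0 with read processing in the strata. Brain with retina gave 100, and 28, 44 and 16 under the first 3 and 47 with no filter. Adult against P6 gave 36, and 0, 14 and 3 under the first 3, 19 with no filter and 55 without short lists. Lung gave 0, and 3 with equal lists. The causes were not tested. With read processing in the strata, brain, retina and liver kept too few libraries for any call, so those counts of 0 decide nothing.

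Leaving out 1 library gave 0 to 15 for brain, 0 to 16 for heart, 0 to 4 for liver, 41 to 88 for retina, 53 to 119 for brain with retina, 11 to 55 for adult against P6 and 203 to 260 for endothelial against input. Within named regions, 2869 alternatives kept direction and call, 289 lost the call and 1 reversed. Most of these were runs without 1 library, and a region that fell below the filter was not counted. With lists of equal length only 1 brain, 3 adult against P6 and 4 retina regions were still tested, and no heart or liver one. The reversed one was the Foxp1 region at chr6:99327559, at -50 percentage points with read processing in the strata. Only P6 brain replicates 1 and 2 and P6 retina were compared there. That stratification could not be fitted for heart, lung or brain with retina, whose endothelial libraries shared no read processing with those they were compared to. The count of regions near members was 984 and 2629 with windows of 10 and 100 kb in place of 1723, and thinning left 6 members in place of 17 above a share of 10%.

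Deviations of same-numbered libraries correlated at -0.147 to 0.116 (221 pairs) and of others at -0.176 to 0.203 (414 pairs). Those are more pairs than endothelial and input libraries of the same tissue and age can form. Whether same-numbered endothelial and input libraries came from the same preparation was therefore not tested. With a replicate block the counts were 28 for endothelial against input, 0 for brain, 0 for heart, 0 for liver, 42 for retina, 16 for brain with retina and 0 for adult against P6. Depth limits non-endothelial levels more than endothelial ones: 0 UMIs in non-endothelial barcodes allow up to 10.7 CPM at E16.5, against 0.0706 in endothelial barcodes, both at 3 UMIs.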
